A study of Mus musculus with 9 samples.

Results

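The tricarboxylic acid cycle enzymes described here were 9 genes, Cs, Idh2, Idh3a, Ogdh, Suclg1, Sucla2, Fh1, Mdh1 and Mdh2, taken by their symbols from a table of RNA sequencing counts in heart and quadriceps. They made up 9 of the 24537 genes and 14 of the 35745 transcript rows of that table, since Ogdh was listed under 5 RefSeq transcripts and Mdh1 under 2. All 14 rows passed the count filter and were tested among 24280 rows. The libraries came from male wild-type C57Bl/6JCrl mice that had a sham operation at an age of 8 weeks, per the labels, and whose tissue was taken 12 weeks later. There were 3 sham heart and 3 sham quadriceps libraries, and the study also sequenced quadriceps of 3 mice after transverse aortic constriction (TAC), a pressure overload of the heart. The cycle enzymes were not among the 587 genes listed for TAC, so their values after TAC were not analysed here.

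The cycle runs in the mitochondrial matrix, where acetyl-CoA is joined to oxaloacetate and oxidised to carbon dioxide, and the electrons released pass to the respiratory chain as NADH and as reduced flavin. Heart muscle beats without rest and draws most of its ATP from oxidation, whereas the mouse quadriceps is built mainly of fast fibres that use glycolysis for short bursts of work. The genes are described below in the order in which their enzymes act.

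Total counts ranged from 33102826 to 38382751 in the heart libraries and from 23383452 to 32989108 in the quadriceps libraries. The tissue labels matched the defining markers. The summed level of 6 heart muscle markers was 12398 to 13369 normalised RPKM (RPKM, reads per kilobase of transcript relative to library size, scaled by TMM, the trimmed mean of M-values) in heart and 4.24 to 6.63 in quadriceps, and that of 6 fast muscle markers was 1.02 to 1.29 in heart and 42075 to 54231 in quadriceps. The atrial light chain Myl7 differed among the heart libraries, at 75.0, 5.61 and 0.120 normalised RPKM, and the adipocyte hormone Adipoq among the quadriceps libraries, at 35.4, 14.5 and 4.33. All 6 endothelial markers were higher in heart, with a summed level of 116 to 129 against 36.2 to 43.1 in quadriceps. Of 6 macrophage markers 4 were higher in heart (14.7 to 15.5 summed, against 6.78 to 12.3), as were 3 of 6 fibroblast markers (229 to 253 against 172 to 237). Of 5 tested adipocyte markers 4 were higher in quadriceps. Their part in the differences below was not tested, and in bulk tissue fewer cells of a type cannot be told apart from less RNA per cell. The quadriceps libraries were more concentrated in few transcripts, with 15.6% to 18.5% of all counts in the 10 largest rows against 11.5% to 12.0% in heart. The scaling therefore mattered: the median log2 difference of all tested rows, heart minus quadriceps, was 0.06 with TMM and 0.80 when the libraries were scaled by their total counts, a shift of 0.75.

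Of the 9 cycle genes, 6 were higher in heart (Cs, Idh2, Ogdh, Fh1, Mdh1 and Mdh2), 2 were higher in quadriceps (Idh3a and Suclg1, whose sign turned when the libraries were scaled by total counts) and 1 did not pass the test (Sucla2), each by its row with most reads. Over all rows tested, 34.4% were called higher in heart and 32.2% higher in quadriceps at an adjusted p below 0.05 (edgeR quasi-likelihood test, Benjamini-Hochberg adjustment). With total counts as the scale those shares were 62.6% and 13.3%, and 8 of the 9 genes were called higher in heart and none higher in quadriceps. The median log2 difference of the 9 genes was 0.39, that is 0.34 above the median of all rows, and it lay 0.34 above it with total counts too. A change of at least 2-fold was reached by Idh2 and Ogdh, both higher in heart, against 20.5% of all rows higher in heart by that much and 16.0% higher in quadriceps. With total counts 6 of the 9 genes were at least 2-fold higher in heart, against 41.9% of all rows, and 7.88% of all rows were that much higher in quadriceps. By 1 row per gene, the 9 genes took 0.614% to 0.643% of all counts in heart and 0.213% to 0.262% in quadriceps. All counts were summed over transcript rows, and rows of a gene can share reads, so these are not shares of reads.

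**Figure D1:**
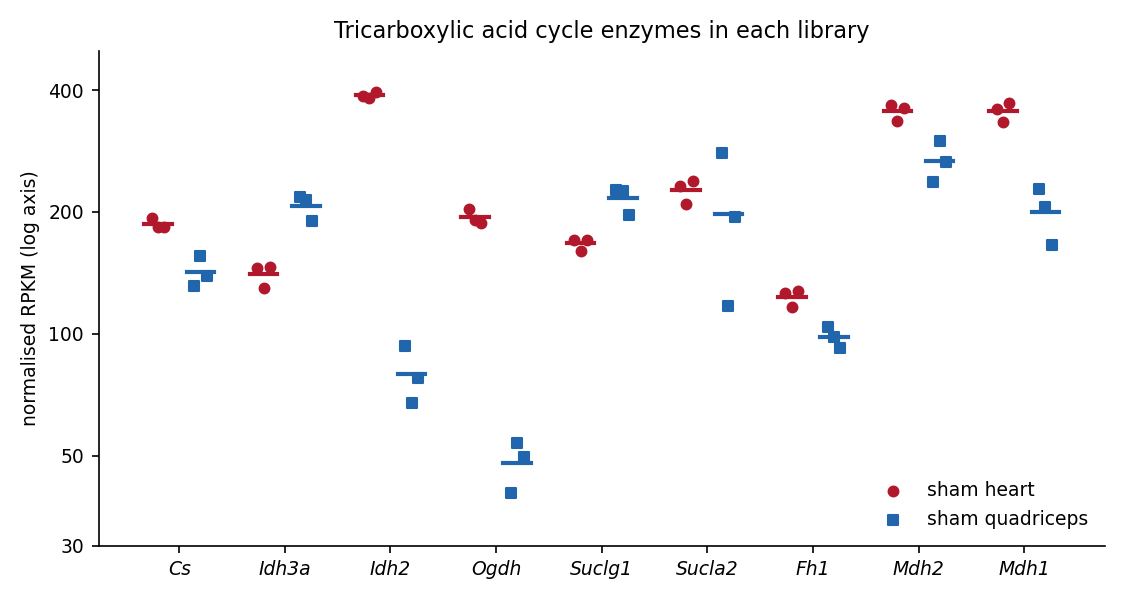
Level of each cycle enzyme in each library, as normalised RPKM on a log axis, with 1 point a library, red circles for sham heart, blue squares for sham quadriceps and a bar at the mean of 3 libraries. Idh2 and Ogdh stand furthest apart between the tissues with heart higher, Idh3a and Suclg1 lie higher in quadriceps on this TMM scale (their sign turns with total counts), and the 3 quadriceps values of Sucla2 run from 117 to 280, around those of heart.

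Within heart, Idh2 had the highest level of the 9 genes (388 ± 6.93 normalised RPKM, SD, n = 3), followed by Mdh1 (355 ± 18.9) and Mdh2 (354 ± 16.8), which overlapped. Sucla2, Ogdh and Cs came next, the last pair overlapping, and Suclg1, Idh3a and Fh1 (123 ± 6.07) followed in steps without overlap between neighbours. Within quadriceps the order was different. Mdh2 had the highest mean (267 ± 30.9) and was followed by Suclg1, Idh3a, Mdh1, Sucla2 and Cs, among which every neighbouring pair overlapped. Fh1 (98.1 ± 5.88) and Idh2 (79.7 ± 13.1) overlapped, and Ogdh (48.0 ± 6.79) was lowest, below every library's Idh2. Idh2 thus ranked 1 of 9 in heart and 8 of 9 in quadriceps. In heart the coefficient of variation of the 9 genes was between 1.78% and 6.78%, across libraries whose Myl7 level ran from 0.120 to 75.0 normalised RPKM.

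Citrate synthase, encoded by Cs, condenses acetyl-CoA with oxaloacetate at the entry of the cycle. It measured 193, 183 and 183 normalised RPKM in the heart libraries and 131, 156 and 139 in quadriceps. The tissues did not overlap, as was the case for 38.3% of all rows with heart higher and 34.2% with quadriceps higher. The log2 difference was 0.39 ± 0.11 (SE), a 1.31-fold higher level in heart (adjusted p = 0.0124, edgeR), and without heart replicate 1 the adjusted p was 0.0604.

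Isocitrate is oxidised to 2-oxoglutarate by a pair of mitochondrial enzymes, and their transcripts differed in opposite directions on the TMM scale. Idh2 encodes the NADP-dependent enzyme, which yields NADPH. It measured 387, 382 and 396 normalised RPKM in heart and 93.5, 67.5 and 78.0 in quadriceps. Each heart library was far above the highest quadriceps library, and the heart libraries were close together. The log2 difference of Idh2 was 2.29 ± 0.14, a 4.87-fold higher level in heart (adjusted p = 8.11e-07, edgeR). Idh3a encodes the catalytic alpha subunit of the NAD-dependent enzyme, a regulated step of the cycle. It measured 145, 130 and 146 in heart and 217, 214 and 190 in quadriceps, again without overlap but with quadriceps higher. The log2 difference of Idh3a was -0.56 ± 0.11 (adjusted p = 0.00188, edgeR), whereas with total counts it was 0.19 and did not pass the test (adjusted p = 0.180, edgeR). Relative to the median of all rows Idh3a was at -0.62 on both scales. The other subunits of the same enzyme gave log2 differences of 0.04 ± 0.11 for Idh3b (adjusted p = 0.790, edgeR) and -0.11 ± 0.11 for Idh3g (adjusted p = 0.371, edgeR), and neither passed the test.

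The 2-oxoglutarate dehydrogenase complex converts 2-oxoglutarate to succinyl-CoA, and Ogdh encodes its first subunit, E1, which decarboxylates the substrate. Ogdh measured 203, 191 and 187 normalised RPKM in heart and 40.5, 53.7 and 49.7 in quadriceps by its row with most reads, NM_001252282. The tissues were far apart, with a log2 difference of 2.02 ± 0.14, or 4.04-fold (adjusted p = 1.86e-06, edgeR). Its remaining rows shared most of these reads and differed by 1.99 to 2.02, so they are 1 measurement and not 5. Dlst, which encodes the E2 subunit that carries the lipoyl arm, was higher in heart by less, at 136 to 155 against 84.0 to 97.2 (log2 difference 0.70 ± 0.11, adjusted p = 0.000439, edgeR). Dld, the E3 subunit that this complex shares with pyruvate dehydrogenase, did not pass the test, at 172, 158 and 181 in heart and 179, 107 and 135 in quadriceps (0.28 ± 0.18, adjusted p = 0.191, edgeR).

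The Ogdh rows stand for transcripts of different structure, and the read counts of a pair of these rows were compared. In the GENCODE annotation of GRCm38, transcripts linked to NM_001252282 carry an exon 4 of 103 bases at chr11:6316978-6317080, and those linked to NM_001252283 carry in its place an exon of 91 bases at chr11:6316765-6316855. The former row had 2425, 2643 and 1893 more reads than the latter in the heart libraries, which was 3.78%, 4.14% and 3.54% of its count. In quadriceps the excess was 182, 182 and 143 reads, or 2.49%, 2.13% and 2.45%. The shares did not overlap and averaged 3.82% ± 0.298 in heart and 2.36% ± 0.195 in quadriceps (SD, n = 3 each, exact two-sided permutation test, p = 0.1, the smallest that 3 against 3 libraries allow). The linked transcripts also differ in their first and last exons and in an exon of 45 bases, so the excess is a net value that the counts do not assign to 1 exon.

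Succinyl-CoA synthetase makes GTP or ATP from succinyl-CoA, with an alpha subunit from Suclg1 that pairs with an ATP-forming beta subunit from Sucla2 or a GTP-forming one from Suclg2. Suclg1 measured 171, 161 and 171 normalised RPKM in heart and 227, 226 and 196 in quadriceps, without overlap. Its log2 difference was -0.37 ± 0.11 (adjusted p = 0.0128, edgeR) and lost the call without heart replicate 2 (adjusted p = 0.0675), and with total counts it was 0.38 in the other direction (adjusted p = 0.0150, edgeR), at -0.43 relative to the median of all rows on both scales. Sucla2 measured 231, 209 and 239 in heart and 280, 117 and 195 in quadriceps. Its quadriceps libraries differed by a factor of 2.38, and 1 of them lay above and 2 below all heart values. The log2 difference of Sucla2 was 0.20 ± 0.26 (adjusted p = 0.517, edgeR). Without quadriceps replicate 1 it was 0.52 and passed (adjusted p = 0.0325, edgeR), and without quadriceps replicate 2 it was -0.07 (adjusted p = 0.710, edgeR). The summed level of 6 adipocyte markers was also highest in quadriceps replicate 1, at 675 against 338 and 291 normalised RPKM in the others. It was 368 to 480 in heart, and its part in the Sucla2 values was not tested. Of the tested markers only Fabp4, at a log2 difference of 0.08, was not called higher in quadriceps, and their median was -5.35. The sum thus does not rank the tissues by adipocyte content. Suclg2 was scarce in both tissues, at 7.62 to 7.95 in heart and 4.80 to 5.07 in quadriceps, and was higher in heart (log2 difference 0.67 ± 0.09, adjusted p = 0.000154, edgeR).

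The starts of Idh2 and Ogdh, the genes with the largest differences, and of Suclg1, which lay in the other direction on the TMM scale, are shown from 100 bases before to 20 bases after an annotated start (RefSeq, GRCm38.p6), with the matched letters in capitals. They are Idh2 at chr7:80115331-80115450 on the minus strand, Ogdh at chr11:6291497-6291616 and at chr11:6292070-6292189 on the plus strand, and Suclg1 at chr6:73248405-73248524 on the plus strand.
Idh2: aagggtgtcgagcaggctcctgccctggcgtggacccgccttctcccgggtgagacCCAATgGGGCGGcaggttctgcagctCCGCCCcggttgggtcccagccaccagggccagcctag
Ogdh, first start: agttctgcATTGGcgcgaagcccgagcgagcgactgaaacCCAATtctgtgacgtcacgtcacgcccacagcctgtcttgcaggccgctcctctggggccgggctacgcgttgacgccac
Ogdh, further start: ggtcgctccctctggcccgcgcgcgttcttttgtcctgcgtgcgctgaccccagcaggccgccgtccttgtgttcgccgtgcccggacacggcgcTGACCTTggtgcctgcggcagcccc
Suclg1: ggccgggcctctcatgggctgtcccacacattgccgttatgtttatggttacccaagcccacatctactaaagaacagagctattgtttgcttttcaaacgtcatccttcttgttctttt

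Windows of 300 bases (250 before and 50 after a start) were matched by symbol for 8 of the 9 genes, all but Idh3a, and were searched on both strands. The CCAAT box, CCAAT, was found in 5 of the 8 (Cs, Fh1, Idh2, Mdh1 and Ogdh) and in 41.1% of all genes with a window. The GC box, GGGCGG, was found in 7 of the 8, all but Suclg1, and in 38.2% of all genes. In the Idh2 window a CCAAT box began 44 bases before the start and was followed by GC boxes on either strand. The core letters AAGGTCA are bound by estrogen-related receptors, which are known regulators of oxidative metabolism. Of the 8 genes only Ogdh held them, 5 bases before the further start and on the minus strand. They were in 5.38% of all genes and in 4.72% of all windows. Several windows were searched for Ogdh, which gave it more places for a match, and the share of all genes does not allow for this. The longer form TCAAGGTCA was in none of the 8 and in 0.47% of all genes. The site of nuclear respiratory factor 1 was found in Sucla2 when its centre base was left free (5.19% of all genes) and in none of the 8 in its stricter form (1.07%). No window of the 8 held the ETS letters CCGGAAGT (4.31% of all genes), the YY1 core AAGATGG (7.28%), the MEF2 site (4.23%) or the E-box CAGCTG (18.3%).

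Fumarase and malate dehydrogenase close the cycle. Fh1 encodes fumarase, which hydrates fumarate to malate, and measured 126, 117 and 127 normalised RPKM in heart and 104, 98.2 and 92.2 in quadriceps. It was 1.26-fold higher in heart, the smallest difference among the members that passed (log2 difference 0.33 ± 0.10, adjusted p = 0.0166, edgeR), and the adjusted p was between 0.0690 and 0.0707 without heart replicate 1, heart replicate 3 or quadriceps replicate 3. Mdh2 encodes the mitochondrial malate dehydrogenase, which regenerates oxaloacetate. It measured 367, 335 and 361 in heart and 237, 299 and 266 in quadriceps, a 1.33-fold higher level in heart (log2 difference 0.41 ± 0.12, adjusted p = 0.0144, edgeR). Leaving out heart replicate 1, heart replicate 3 or quadriceps replicate 3 raised the adjusted p to between 0.0538 and 0.0623. Mdh1 encodes the cytosolic enzyme, which takes part in the malate-aspartate shuttle rather than in the cycle itself. It measured 359, 334 and 371 in heart and 228, 206 and 166 in quadriceps, with all heart libraries above all quadriceps libraries. The log2 difference of Mdh1 was 0.83 ± 0.14, or 1.77-fold (adjusted p = 0.000615, edgeR). Between fumarase and the preceding step stands succinate dehydrogenase, of which Sdhb (0.30 ± 0.11, adjusted p = 0.0346) and Sdhc (0.69 ± 0.11, adjusted p = 0.000502) were higher in heart by the edgeR test, the former losing its call without any 1 heart library or quadriceps replicate 3 (adjusted p up to 0.133). Its flavin-carrying subunit Sdha, at 0.32 ± 0.13 (adjusted p = 0.0507, edgeR), and its membrane anchor Sdhd, at -0.32 ± 0.14 (adjusted p = 0.0726, edgeR), did not pass.

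**Figure D2:**
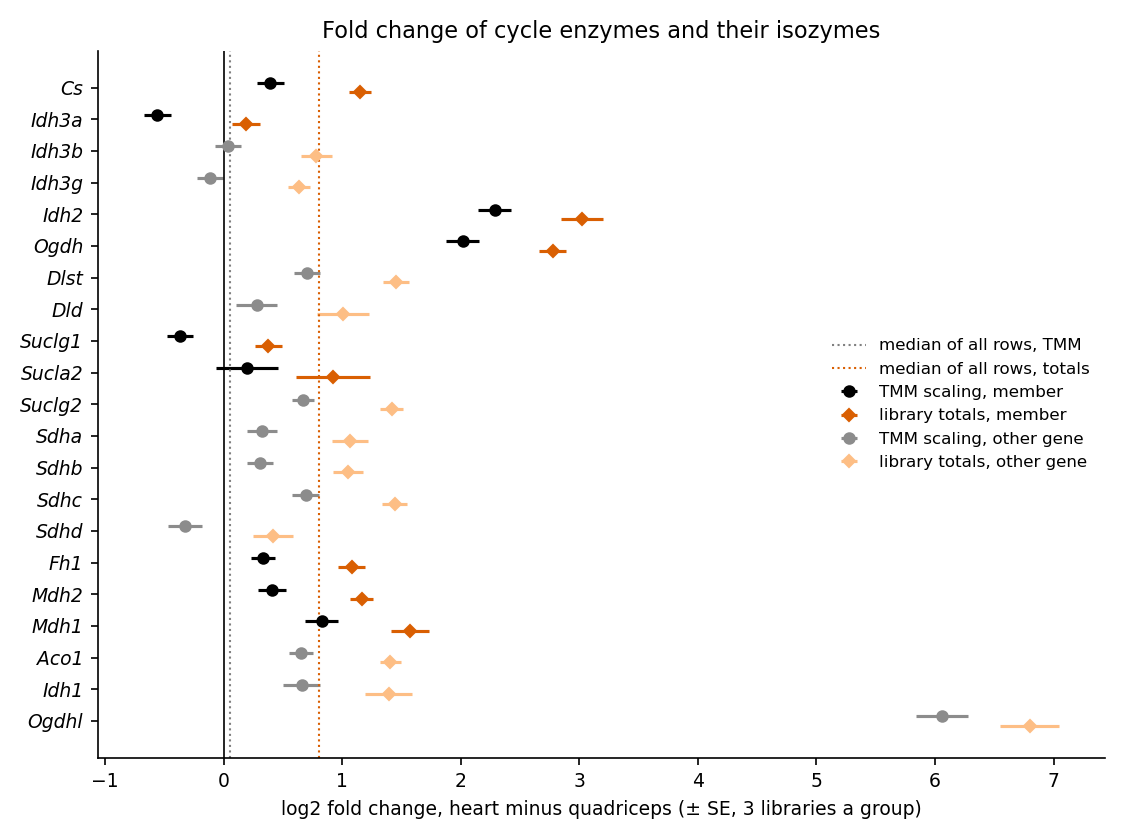
Log2 difference of heart minus quadriceps with its SE for the 9 cycle enzymes (dark symbols) and 12 other cycle genes and isozymes (pale symbols), with circles for TMM scaling and diamonds for scaling by total counts, 3 libraries a group. Dotted lines mark the median of all rows at 0.06 and 0.80. Idh2 and Ogdh stand out among the members at 2.29 and 2.02, and Idh3a and Suclg1 lie left of 0 with TMM, right of 0 with total counts and left of the dotted line on both scales.

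Of 9 other genes of the cycle that were compared, 4 were higher in heart (Dlst, Suclg2, Sdhb and Sdhc), none was called higher in quadriceps and 5 did not pass (median log2 difference 0.30, range -0.32 to 0.70). With total counts all 9 were called higher in heart. None of these genes differed by 2-fold on the TMM scale, unlike Idh2 and Ogdh. The isozymes that work outside the cycle or are not its main form, Aco1, Idh1 and Ogdhl, were all higher in heart. The cytosolic Aco1 was at 3.44 to 3.67 against 2.09 to 2.40 (log2 difference 0.65 ± 0.10) and the cytosolic Idh1 at 19.5 to 23.0 against 10.6 to 16.7 (0.66 ± 0.16). Ogdhl, a paralogue of Ogdh, measured 24.4, 17.0 and 18.8 normalised RPKM in heart and 0.376, 0.220 and 0.297 in quadriceps (log2 difference 6.06 ± 0.22, adjusted p = 2.61e-08, edgeR). It thus ran in the same direction as Ogdh, at a much lower level.

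Ratios of paired enzymes within a library do not depend on how the libraries are scaled against each other, and 10 such ratios of reads per kilobase were compared. Idh2 exceeded Idh3a in heart, with ratios of 2.66, 2.95 and 2.71, and was below it in quadriceps, with 0.430, 0.316 and 0.410. The ratio was 7.25-fold higher in heart (log2 difference 2.86 ± 0.15, SE). Idh2 also exceeded the cytosolic Idh1 by more in heart (17.2 to 19.6) than in quadriceps (5.37 to 7.39). The ratio of Ogdh to its partner subunit Dlst was 1.31, 1.41 and 1.23 in heart and 0.444, 0.553 and 0.592 in quadriceps, so the E1 transcript exceeded that of E2 in each heart library and fell short of it in each quadriceps library. Against the alternative E1 gene Ogdhl, Ogdh was 8.32 to 11.2 times as high in heart and 108 to 245 times in quadriceps.

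Smaller shifts were seen in the remaining pairs. Idh3a relative to its own beta subunit Idh3b was 0.612 to 0.651 in heart and 0.908 to 1.04 in quadriceps, and relative to the gamma subunit Idh3g it was 0.780 to 0.803 and 0.976 to 1.22. The ratio of Suclg1 to Sucla2 was 0.715 to 0.767 in heart and 0.810, 1.92 and 1.01 in quadriceps, where the spread followed that of Sucla2. Mdh2 and Mdh1 were nearly equal in heart (0.973 to 1.02), and in quadriceps their ratio was 1.04, 1.45 and 1.60. Sucla2 exceeded Suclg2 by 26.8 to 30.4 in heart and by 24.5 to 57.7 in quadriceps, with overlap, and the ratio of Cs to Mdh2 was 0.509 to 0.546 and 0.520 to 0.554, also with overlap. In 8 of the 10 pairs the tissues did not overlap and the exact two-sided permutation test gave p = 0.1, the smallest possible with 3 against 3 libraries (0.125 after Benjamini-Hochberg adjustment over the 10), so no ratio could pass a threshold of 0.05. Sucla2 to Suclg2 gave p = 0.4 and Cs to Mdh2 gave p = 0.7 by the same exact test.

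**Figure D3:**
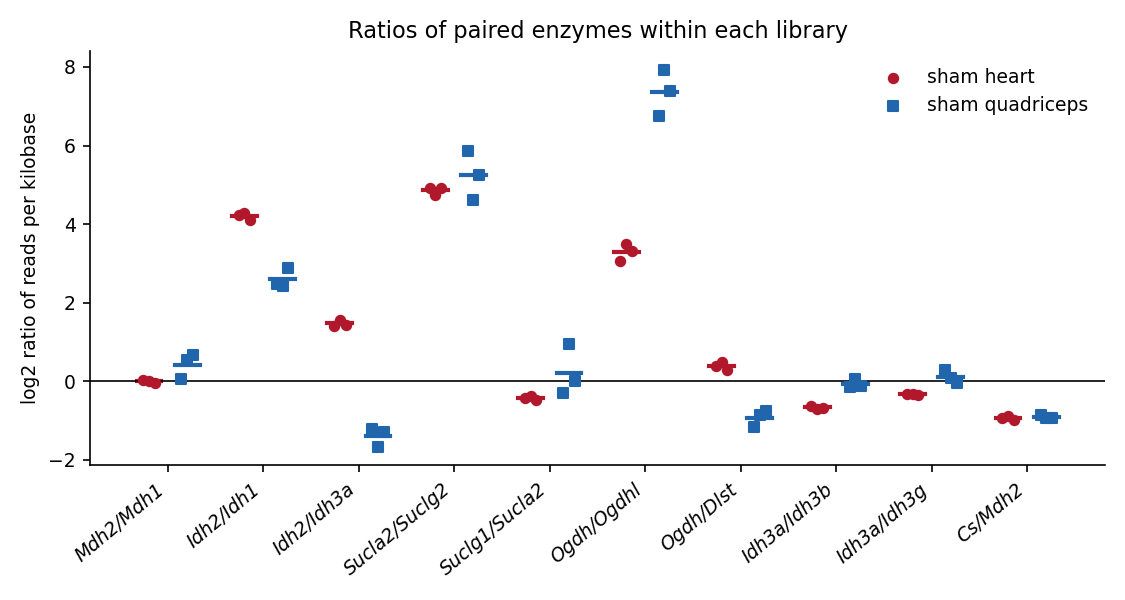
Log2 ratio of reads per kilobase for 10 pairs of enzymes, with 1 point a library, red circles for sham heart, blue squares for sham quadriceps and a bar at the mean of 3 libraries. The ratios of Idh2 to Idh3a and of Ogdh to Dlst lie above 0 in every heart library and below 0 in every quadriceps library, while those of Cs to Mdh2 coincide.

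Set beside neighbouring pathways, the cycle enzymes lay between fatty acid oxidation and glycolysis. Of 24 subunits of the respiratory chain and ATP synthase, 8 were higher in heart, 2 were higher in quadriceps (Ndufv2 and Cox5b) and 14 did not pass, with a median log2 difference of 0.23 against 0.39 for the cycle enzymes. With total counts 23 of these were higher in heart, Ndufv2 among them (0.38), and only Cox5b was higher in quadriceps. They ran from Cox5b at -1.51 to Cox4i1, also a cytochrome oxidase subunit, at 1.03. The TMM call of Ndufv2 was lost without heart replicate 2 (adjusted p = 0.108, edgeR). That of Cyc1, called higher in heart, was lost without heart replicate 1 (adjusted p = 0.129, edgeR). Of 12 genes of fatty acid oxidation, 11 were higher in heart (median 1.08), up to the trifunctional protein subunit Hadhb at 1.52, and Hadh was higher in quadriceps (-0.52, but 0.23 with total counts). Of 11 genes of glycolysis, 10 were higher in quadriceps (median -1.89) and Hk2 did not pass, and with total counts 9 were higher in quadriceps and Hk2 in heart. The lowest was Gapdh at -6.66, an uncertain value. This gene has many near-identical pseudogene copies, and the handling of multiply mapped reads is not known. Their part in the Gapdh value was not tested. The difference between these lists and the cycle enzymes was not tested. Idh2 and Ogdh exceeded every gene of the respiratory chain and fatty acid oxidation lists in their log2 difference.

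**Figure D4:**
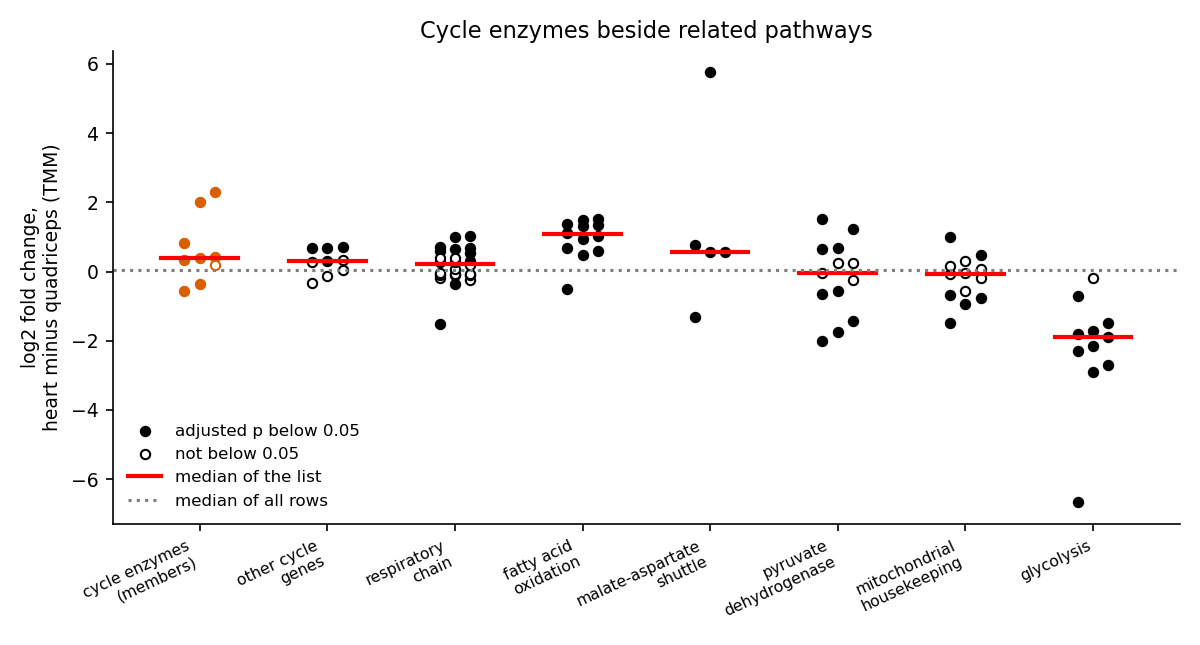
Log2 difference of heart minus quadriceps (TMM scaling) for each gene of 8 lists, with 1 point a gene, filled where the adjusted p was below 0.05 (edgeR), the cycle enzymes in orange, a red bar at the median of each list and a dotted line at the median of all rows. The cycle enzymes run from -0.56 to 2.29 around a median of 0.39, between fatty acid oxidation at 1.08 and glycolysis at -1.89; points below 0 turn sign with total counts for Idh3a, Suclg1 and others.

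The 9 genes lie on 8 chromosomes of GRCm38. Ogdh (chr11:6291633-6356642, plus strand) and Mdh1 (chr11:21556787-21572367, minus strand) share chromosome 11, Sucla2 lies at chr14:73525319-73596142 on the plus strand, Idh2 at chr7:80094846-80115392 on the minus strand and Idh3a at chr9:54586334-54604661 on the plus strand. Some overlap a gene on the opposite strand: Fh1 (chr1:175600374-175625635, minus strand) overlaps Kmo over 5255 bases and Mdh1 overlaps Wdpcp over 133 bases. These lengths are between whole genes, introns included, and whether they reach counted exons was not examined. The strand setting of the counting was not stated, so reads from any shared exon bases cannot be told apart. Cs (chr10:128337734-128362479, plus strand), Idh2 and Mdh1 overlap small or uncharacterised genes on their own strand. Idh3a, Ogdh, Suclg1 (chr6:73248382-73276911, plus strand) and Mdh2 (chr5:135778480-135790398, plus strand) overlap no annotated gene.

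The genes whose profile over the 6 libraries was most like the mean of the 9, among 529 rows at least as abundant as the scarcest of them, were Acot13 (r = 0.995), Hadha (0.995), Ctnnb1 (0.995), Lpl (0.994) and Rcan2 (0.991). These values describe libraries that fall into 2 tissues and share their depth and scaling, so they mostly reflect the tissue difference, which for these genes ran from 0.47 for Ctnnb1 to 2.07 for Rcan2 on the log2 scale. Of the lists used here, the TAC table held 4 metabolic genes. TAC quadriceps differed from sham quadriceps by a log2 value of 0.97 ± 0.24 for the glycolytic Gpi1 (adjusted p = 0.0206, edgeR), against 17.7% of 586 tested genes called higher and 11.9% called lower, while Aldoa (0.70), Pgk1 (-0.28) and the mitochondrial chaperonin Hspd1 (-0.02) did not pass. Gpi1 was no longer called without sham quadriceps replicate 1 or 3, TAC replicate 1 or the unnumbered TAC library. Markers of other cells moved as well: of those listed, the endothelial Pecam1 (0.63) and Vwf (0.84) were higher after TAC, and 4 of 5 fibroblast markers were lower, from Col3a1 at -3.95 to Lum at -2.34, with Dcn at 0.17. Their part in the Gpi1 value was not tested. Library totals were computed for 5 of the 6 libraries, so scaling by them also left out the unnumbered TAC library. With library totals the median of all listed genes moved from 0.03 to -0.63, and 3.41% were called higher and 30.7% lower. None of the 4 passed, with Gpi1 at 0.36 and Aldoa at -0.05, on the other side of 0. The median was -0.08 with TMM and without the unnumbered TAC library. For the Gpi1 call, the scale and the missing library cannot be told apart.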

How the data were processed

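RNA of heart and quadriceps was sequenced by the authors (ScriptSeq v2 libraries, single-end reads on a HiSeq2500), trimmed with Trim Galore, aligned to mm10 with STAR and counted per RefSeq transcript with Rsubread. Tool versions, the strand setting and the handling of multiply mapped reads are not given in the sources used here. The authors deposited raw counts and RPKM values, the latter being counts divided by transcript length and library total (10 rows of the heart table, none of them a member, deviate from this). Columns with the authors' own comparisons (fold changes and p-values) were not used, and 1 column of a single library (an RPKM column of a TAC library) was left out. A TAC count column numbered 4, where labels run to 3, was taken as an unnumbered TAC replicate. The TAC table holds a selected set of genes, so its TMM factors refer to those genes.

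A row was tested if at least 2 libraries had over 5 counts, with edgeR 4.0.16 (R 4.3.3; TMM, quasi-likelihood, Benjamini-Hochberg over all tested rows). Tests were checked on simulated data in which few rows differed between the groups. Such data do not check the choice of scale for these tissues. Normalised RPKM are counts per kilobase relative to the TMM-scaled library size. A gene is given by its row with the highest mean count. Alternatives were DESeq2 1.42.0, limma 3.58.1 on log2(RPKM + 0.5, 1 or 0.1), other scalings and filters, the replicate number as a block and leaving out each library. For the TAC table, scaling by totals and leaving out each library were chosen after seeing the data. The genes named were all members, the other cycle genes and isozymes, the extremes of each other list and the genes against its direction, and the 5 genes most like the members by Pearson correlation of log2 CPM. Members and lists were chosen with earlier results of these data known. The study calls its replicates biological, so p-values measure the spread between these libraries. Some results on other genes, and the ratio that needs one of them, are not reported here.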

Additional observations from a re-analysis of the deposited data

How the results depend on the processing

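The scale of the libraries changed the most values. With total counts, and with limma on log2(RPKM + 0.5), (RPKM + 1) and (RPKM + 0.1), which share that scale, Idh3a was at 0.19 in each of the 4 settings and Suclg1 at 0.38 in each, against -0.56 and -0.37; Sucla2 passed at 0.92, 1.03, 1.03 and 1.04; 0 member rows were called higher in quadriceps, against 2; and 11, 12, 12 and 12 of the 14 member rows were called at least 2-fold higher in heart, against 6. The median of the 14 rows, 0.83 with TMM, was 1.57, 1.59, 1.58 and 1.59. Over all rows 15203, 15319, 15322 and 15365 were called higher in heart, against 8354, and 3241, 3201, 3194 and 3218 higher in quadriceps, against 7828. With 1 row per gene, fewer rows were tested: 6 members and 5059 genes in all were called higher in heart, 4744 higher in quadriceps and 2 members at least 2-fold higher, with a median of 0.40. Deviations of same-numbered heart and quadriceps libraries from their group means correlated at 0.055, -0.053 and 0.035. Such values cannot tell whether same-numbered libraries came from the same mouse, since different tissues need not share deviations. With the replicate block Fh1 was at 0.33 with an adjusted p of 0.0565, and no other member changed its call. Leaving out each library in turn, Sucla2 ran from -0.071 to 0.52, Cs from 0.31 to 0.46, Suclg1 from -0.46 to -0.34, Fh1 from 0.27 to 0.37 and Mdh2 from 0.30 to 0.49, with the losses of calls given above; the member rows called higher in quadriceps were 1 to 2, the median of the 14 rows was 0.68 (without quadriceps replicate 3) to 0.90, and the ratio of Cs to Mdh2 ran from -0.042 to 0.013 on the log2 scale, above 0 without heart replicate 3 or quadriceps replicate 1. Idh2, Ogdh, Mdh1 and Idh3a kept their direction and call in each of these. Of the listed metabolic genes in the TAC table, 1 was called, and 0 with library totals (5 libraries, the unnumbered TAC library left out). On leaving out a library 0 to 1 were called (0 without sham quadriceps replicate 1 or 3 or TAC replicate 1 or the unnumbered one). With 3 libraries a tissue, small differences such as those of Cs, Fh1 and Mdh2 lie close to what the test can call.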

Other observations

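The steps that feed the cycle differed in both directions. Among 13 genes of the pyruvate dehydrogenase complex, its regulators and the pyruvate carriers, 4 were higher in heart, 5 were higher in quadriceps and 4 did not pass (edgeR, adjusted p below 0.05). The kinase Pdk1 was highest in heart at a log2 difference of 1.51, and the phosphatase Pdp1 was lowest at -1.99. The kinase Pdk3 was called higher in heart but did not pass without heart replicate 3 (adjusted p = 0.0641, edgeR). With total counts 8 of the 13 were higher in heart and 2 higher in quadriceps, and the carrier Mpc2 (0.10) and Pdpr (0.18), a regulator of the phosphatase, turned sign and lost their quadriceps calls. The kinase Pdk4 was at 37.6 to 48.3 normalised RPKM in heart and at 226, 74.6 and 44.8 in quadriceps, so that its called difference of -1.43 (adjusted p = 0.0261) came with overlap between the tissues, with total counts it did not pass (adjusted p = 0.254), and without any 1 heart library or quadriceps replicate 1 it did not pass either (adjusted p up to 0.0757). In the malate-aspartate shuttle, in which Mdh1 and Mdh2 take part, 4 of 5 genes were higher in heart. The aspartate-glutamate carriers ran in opposite directions: Slc25a13 was at 29.4 to 30.9 normalised RPKM in heart and 0.391 to 0.712 in quadriceps (log2 difference 5.76), and Slc25a12 at 37.8 to 38.6 and 87.6 to 104 (-1.30).

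Of 12 genes measured for the filling and draining of cycle intermediates, 4 were higher in heart (from Me3 at 0.32 to Pck2 at 0.71). The 3 higher in quadriceps were Pcx, pyruvate carboxylase (-1.48), Me1, the cytosolic malic enzyme (-1.96), and Pck1 (-5.09). The quadriceps values of Pck1 were 6.16, 1.12 and 0.651 normalised RPKM, in the same order as Adipoq. An order of 3 libraries is easily shared, and the part of adipocytes in the Pck1 values was not tested. With total counts 9 of the 12 were higher in heart and 3 in quadriceps. Me3 lost its TMM call without quadriceps replicate 3 or heart replicate 1 or 3 (adjusted p up to 0.0709, edgeR). Acly, also called higher in heart, lost its TMM call as well, with the highest adjusted p without quadriceps replicate 3 (0.0727, edgeR). Of 13 housekeeping genes of mitochondria, 2 were higher in heart, 4 in quadriceps and 7 did not pass (median -0.06, from Vdac3 at -1.48 to Tomm40 at 0.99), whereas with total counts 8 were higher in heart and 1 in quadriceps, with Tfam turning to 0.07. The slow or oxidative fibre markers split, with Myh7, Myl2 and Mb higher in heart and Myh2, Tnnt1 and Tnni1 higher in quadriceps. The order of the quadriceps libraries seen for Sucla2 was also that of Dld and of Ndufs1 (151, 94.8 and 115) and Hspa9 (183, 114 and 157), the last pair chosen after their values were seen.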
